A study of Oryza sativa with 6 samples.

Results

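Cytokinin dehydrogenases (CKX) are the enzymes that remove cytokinins, and 5 of their genes could be followed in rice seedlings given an auxin, a cytokinin or solvent alone. A probe set, which is the unit of measurement on the array, was taken as a member when the probe-to-gene table tied it to 1 gene that carries a CKX number as symbol or synonym. This gave 6 probe sets for 5 genes, out of 17905 genes with a probe set of their own. They were CKX1 (LOC4325668), CKX3 (LOC4348932), CKX4 (LOC4326515), CKX5 (LOC4327887) and CKX11 (LOC4345764), with 1 probe set each except for CKX11, which had 2. The gene table listed 7 CKX genes. CKX2 (also known as Gn1a) and CKX9 had 0 probe sets by the rule above and were not analysed here.

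The material was whole light-grown seedlings of the indica variety IR64 at 7 days of age, and the labels name no transgene or mutation. One group was kept in 50 µM indole-3-acetic acid (IAA, an auxin), another in 50 µM benzyl aminopurine (BAP, a cytokinin), and the control group received dimethyl sulfoxide at 0.1%. For every sample, tissue taken after 1 h and after 3 h was pooled in equal amounts, so the values average an earlier and a later response. Each group had 2 arrays, called array 1 and array 2 after the replicate numbers, and the series design calls the replicates biological.

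Cytokinins promote cell division and shoot growth, and restrain the growth and branching of roots. CKX enzymes are flavoproteins that cut the side chain off cytokinins with an unsaturated side chain, while the aromatic cytokinin BAP is generally a poor substrate for them. Cytokinin is sensed by histidine kinase receptors and relayed through phosphotransfer proteins to type-B response regulators, which switch on target genes. Type-A response regulators and several CKX genes are well-known targets of that pathway, so the pathway restrains itself through both. Auxin and cytokinin act against each other in many root processes, and CKX4 is known in rice from a mutant in which its raised expression gave more crown roots. CKX11 is known in rice for effects on leaf senescence and grain number.

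The array medians of the deposited intensity lay between 16.6 and 23.1, and the correlation over all target probe sets lay between 0.981 and 0.989 for every pair of arrays. Control and IAA arrays were run on 1 day, with the control arrays in fluidics modules 1 and 2 and the IAA arrays in modules 3 and 4. The BAP arrays were run together on a different day, in modules 3 and 4. The effect of BAP and that of run day cannot be told apart, and neither can a hormone and the fluidics module in the comparisons with control. The shoot markers CAB2R, a chlorophyll-binding protein gene, and rca, the Rubisco activase gene, were bright on every array, with summed intensities of 12776 to 13621 in control, 12946 to 13120 with IAA and 12611 to 13783 with BAP. All 6 root markers were also present, with no value under 67.3 on any array. They were Lsi1, Lsi2, IRT1, NRAMP5 and 2 loci that both matched the name PT2 (LOC4330436 and LOC4331637). The summed intensity of the root markers was 6135 and 6181 in the control arrays, 4210 and 4523 in the IAA arrays and 3082 and 3118 in the BAP arrays. Much of this sum came from Lsi1, at 3744 and 3309 in the control arrays, 2487 and 2698 with IAA and 1868 and 1911 with BAP. The summed levels did not overlap between groups. Of the 6 root markers 2, the silicon transporter genes Lsi1 and Lsi2, were called lower with BAP, while 0 were called with IAA. At an unadjusted p under 0.05 in limma, 4 were lower with BAP and 3 with IAA. Of all tested probe sets, 0.0641% were called lower with BAP and 0.219% with IAA. At that unadjusted level, 3.48% of them were lower with BAP and 5.60% with IAA. Log2 differences of these markers were below 0 for 6 of 6 with IAA, 5 of 6 with BAP and 4 of 6 for BAP against IAA. The calls of Lsi1 and Lsi2 were lost without either control array or BAP array 2, and that of Lsi1 also without BAP array 1 (adjusted p up to 0.124). The part of this fall in the CKX values below was not tested. In such bulk tissue, fewer cells of a type and less RNA per cell cannot be told apart.

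Differences are log2 differences between group means of log2(intensity + 16), from limma, a linear model fitted over 34316 probe sets bright enough to be tested. A difference is called where the adjusted p over all those probe sets, by the Benjamini-Hochberg method, is under 0.05. Of the 6 CKX probe sets, 5 passed the filter on brightness, and they stood for 4 genes. The control means of CKX3, CKX4 and CKX5 alone were 5.90, 7.57 and 6.93 on the log2 scale, above the filter at 4.70, so these genes did not enter the test through their treated arrays. Intensities below are normalized values, and levels of different probe sets are not compared with each other.

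CKX5, CKX4 and CKX3 were called higher with BAP than in the control, and CKX4 was called higher with IAA. These are differences between arrays, which also differed from the control in run day for BAP and in fluidics module for both hormones. CKX11 held no call in any comparison, and CKX1 was below the brightness filter and was not tested in this fit. Among the 5 tested CKX probe sets, 3 were higher with BAP than in the control and 0 were lower, in limma (4 higher and 0 lower at an unadjusted p under 0.05). Of all tested probe sets, 0.210% were called higher and 0.0641% lower in that comparison. With IAA, 1 was higher than in the control and 0 were lower (1 higher and 1 lower at an unadjusted p under 0.05), where the background was 0.632% higher and 0.219% lower. Between the hormones, 2 were higher with BAP and 0 were lower (3 higher and 0 lower at an unadjusted p under 0.05). The background there was 1.11% higher and 1.13% lower. At an unadjusted p under 0.05 in limma, 4.09% of all tested probe sets were higher and 3.48% lower for BAP against control. Those shares were 5.25% and 5.60% for IAA against control, and 6.53% and 6.16% for BAP against IAA.

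The BAP count was 0 without control array 1 or BAP array 2 and 1 without control array 2 or BAP array 1. The IAA count was 0 without control array 1 or IAA array 1, and the count between the hormones was 2 with any array left out. Each hormone was compared with the same 2 control arrays. The plot of values by array shows all 6 probe sets.

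**Figure D1:**
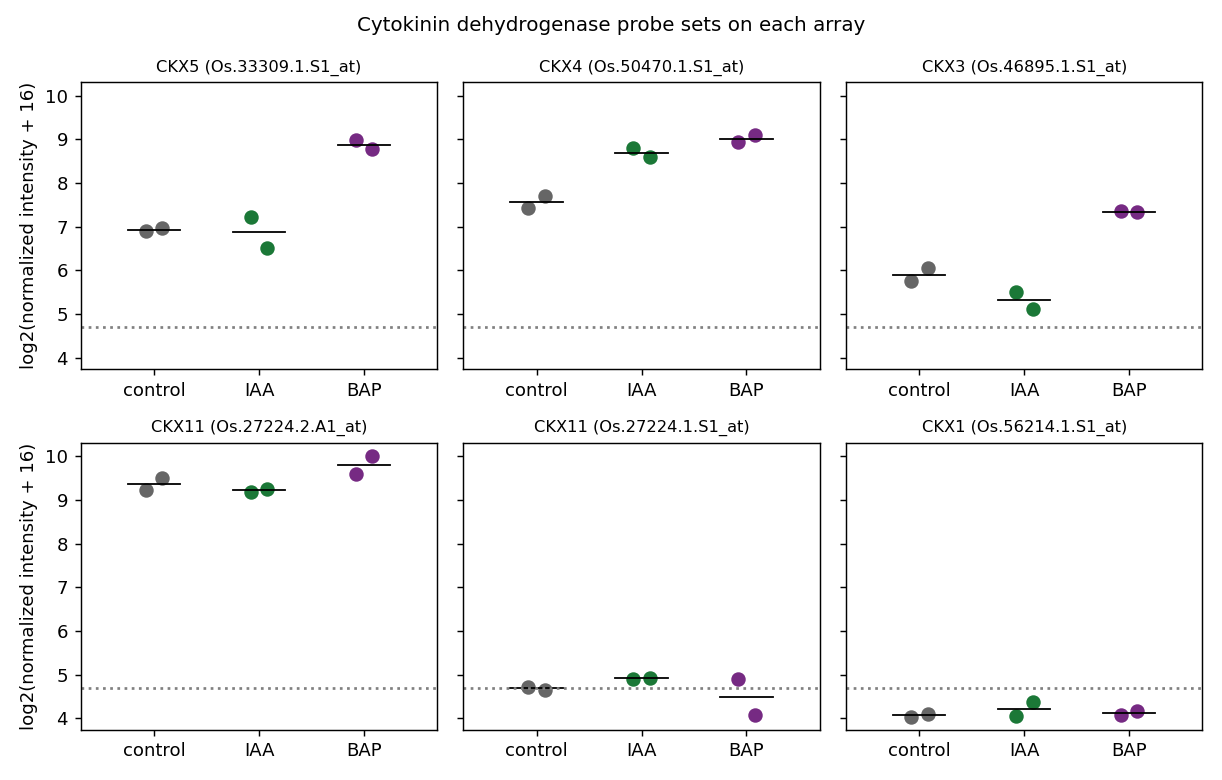
Log2(normalized intensity + 16) of each CKX probe set on each array, with control, IAA and BAP on the horizontal axis; points are arrays, the line is the mean of 2 arrays, and the dotted line is the brightness filter at 4.70. CKX5 and CKX3 stand high on the BAP arrays alone, CKX4 stands high on IAA and BAP arrays, and CKX1 lies under the filter on every array.

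CKX5 was called higher with BAP than in the control and showed no called change with IAA. Its intensity was 104 and 108 in the control arrays, 133 and 75.8 in the IAA arrays, and 486 and 420 in the BAP arrays. Both BAP arrays lay far above the other 4, a separation from control that 17.8% of all tested probe sets had in this direction, and the IAA arrays lay on either side of both controls. The group means were 106 ± 2.89 in the control, 105 ± 40.6 with IAA and 453 ± 47.1 with BAP (SD, n = 2 arrays each), so control and IAA did not differ beyond their spread. CKX5 rose by 1.94 with BAP on the log2 scale (95% interval 1.44 to 2.43, limma adjusted p = 0.0102), or 3.83-fold on that scale. This was the 13th largest increase among the 34316 tested probe sets. The difference between IAA and control was -0.06 (95% interval -0.56 to 0.43, limma adjusted p = 0.955).

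CKX5 also rose by 2.00 with BAP relative to IAA (SE 0.22, 95% interval 1.50 to 2.49, limma adjusted p = 0.00237). This call held with each of the 6 arrays left out, at adjusted p up to 0.0327. The call of BAP against control was lost without control array 1 (limma adjusted p = 0.0867), control array 2 (0.0657), BAP array 1 (0.0983) or BAP array 2 (0.0910), while the log2 difference stayed between 1.84 and 2.04. Without IAA array 2, the difference between IAA and control was 0.29 in place of -0.06, so its direction rested on that array.

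CKX3 was higher with BAP than with either control or IAA. Its intensity was 37.9 and 49.9 in the control arrays, 29.3 and 18.7 in the IAA arrays, and 147 and 146 in the BAP arrays. The 3 groups did not overlap, with IAA lowest and BAP highest. Group means were 43.9 ± 8.45 in the control, 24.0 ± 7.51 with IAA and 146 ± 0.616 with BAP (SD, n = 2 arrays each). CKX3 rose by 1.45 with BAP against control (95% interval 0.98 to 1.91, limma adjusted p = 0.0297). With IAA it read -0.59 against control (95% interval -1.05 to -0.13, unadjusted p = 0.0181 and adjusted p = 0.311 in limma), which did not pass. Among all tested probe sets, 22.9% had both IAA arrays below both control arrays. Both BAP arrays lay above both control arrays for 17.8% of them and above both IAA arrays for 19.7%.

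The difference of CKX3 between BAP and IAA was 2.03 (SE 0.20, 95% interval 1.57 to 2.50, limma adjusted p = 0.00157), or 4.10-fold on the log2(intensity + 16) scale. It stayed called with each array left out, at adjusted p up to 0.0228. The rise with BAP against control lost its call without control array 1 (limma adjusted p = 0.212), control array 2 (0.107), BAP array 1 (0.146) or BAP array 2 (0.214), with log2 differences from 1.30 to 1.59. The size of the CKX3 difference depended on the added 16: the log2 difference between BAP and IAA was 2.60 with a pseudocount of 1 and 1.26 with one of 64.

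CKX4 was higher with both hormones. Its intensity was 156 and 193 in the control arrays, 426 and 370 in the IAA arrays, and 477 and 527 in the BAP arrays. Every treated array lay above both control arrays, and the BAP arrays lay above the IAA arrays. Of all tested probe sets, 21.1% had both IAA arrays above both controls and 17.8% had both BAP arrays above both controls. Both BAP arrays lay above both IAA arrays for 19.7%. The group means were 174 ± 25.7 in the control, 398 ± 39.6 with IAA and 502 ± 35.3 with BAP (SD, n = 2 arrays each). CKX4 rose by 1.12 with IAA (SE 0.15, 95% interval 0.79 to 1.46, limma adjusted p = 0.00982) and by 1.45 with BAP (SE 0.15, 95% interval 1.11 to 1.78, adjusted p = 0.00796). These are 2.18-fold and 2.73-fold on the log2(intensity + 16) scale.

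The levels of CKX4 with the 2 hormones were not told apart. BAP minus IAA was 0.33 (95% interval -0.01 to 0.66, unadjusted p = 0.0550 and adjusted p = 0.409 in limma), so a difference of up to 1.58-fold in favour of BAP lies within the interval. All 6 fits with 1 array left out kept this difference above 0 and uncalled. The rise with IAA lost its call without control array 1 (limma adjusted p = 0.116) or IAA array 1 (0.0872), and the rise with BAP without control array 1 (0.0845) or BAP array 2 (0.0774). Without BAP array 1 the rise with BAP was just past the threshold, at adjusted p = 0.0498.

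CKX11 was bright on 1 of its probe sets and close to the filter on the other. The bright one read 588 and 706 in the control arrays, 569 and 598 in the IAA arrays, and 754 and 1011 in the BAP arrays. The BAP arrays were the highest, 1 of them far more than the other, and control and IAA arrays overlapped. Of all tested probe sets, 17.8% had both BAP arrays above both controls and 19.7% above both IAA arrays. BAP against control gave 0.43 (95% interval 0.08 to 0.78, unadjusted p = 0.0225 and adjusted p = 0.519 in limma), and BAP against IAA gave 0.57 (95% interval 0.22 to 0.92, adjusted p = 0.125). Neither passed, and without BAP array 2 the difference from control was 0.22. IAA against control read -0.14 (95% interval -0.49 to 0.21, limma adjusted p = 0.820).

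The dim CKX11 probe set read 10.5 and 9.18 in the control arrays, 14.1 and 14.5 in the IAA arrays, and 13.7 and 0.983 in the BAP arrays. The BAP arrays disagreed with each other and lay on either side of the controls. Its mean lay at percentile 40.1 of all target probe sets, just inside the filter at percentile 40, and its control mean of 4.69 on the log2 scale was below the filter. Its log2 differences were 0.23 for IAA and -0.20 for BAP against control (limma adjusted p = 0.857 and 0.952), and -0.43 for BAP against IAA (adjusted p = 0.649). Its direction with BAP was thus opposite to that of the bright probe set, and it turned to 0.20 without BAP array 2, while BAP against IAA was then -0.03. The 2 probe sets are tied to different source sequences in the annotation, and no value here decides which of them follows the CKX11 transcript.

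CKX1 was the member that did not pass the filter. It read 0.466 and 1.10 in the control arrays, 0.683 and 4.68 in the IAA arrays, and 0.900 and 1.98 in the BAP arrays. All of these are far below the filter, which corresponds to an intensity near 9.94, and they carry no order. With dim probe sets kept in the fit, the log2 differences of CKX1 were 0.15 for IAA and 0.06 for BAP (limma adjusted p = 0.809 and 0.993).

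**Figure D2:**
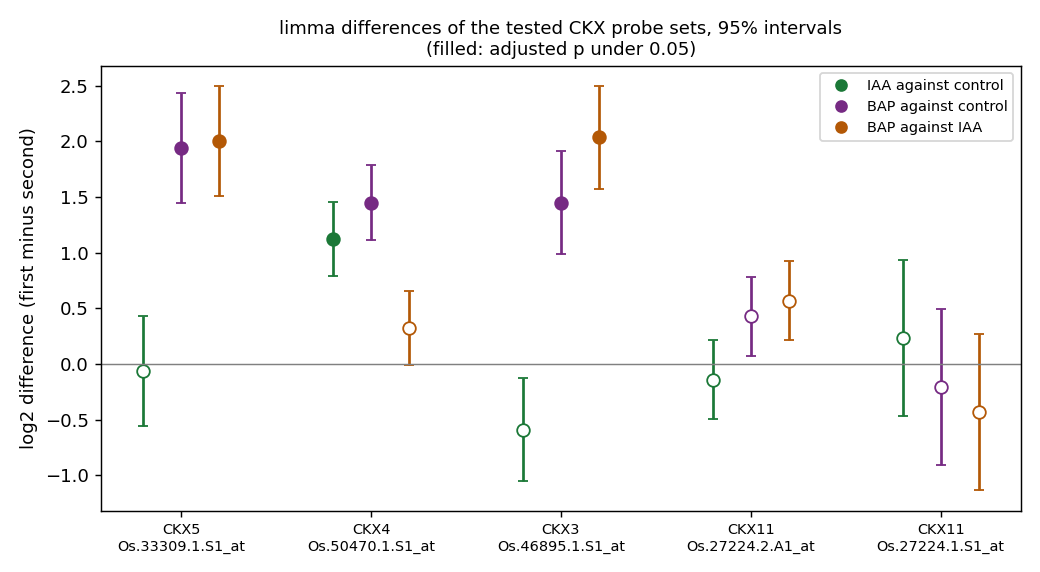
Log2 differences of the 5 tested CKX probe sets in the 3 comparisons, on the vertical axis, with 95% intervals from limma; filled points passed an adjusted p of 0.05. CKX5 and CKX3 differ from control with BAP and between the hormones, while CKX4 differs from control with either hormone and its interval for BAP against IAA runs from -0.01 to 0.66.

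For CKX5 the order was control and IAA together, then BAP. For CKX3 the means stood in the order IAA, control, BAP, where the step from IAA to control did not pass. For CKX4 the order was control, IAA, BAP, where the step from IAA to BAP did not pass. The calls between BAP and IAA for CKX3 and CKX5 were the ones that did not depend on any single array, though they too compare arrays of different run days, while each rise against control was lost without control array 1, among others.

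**Figure D3:**
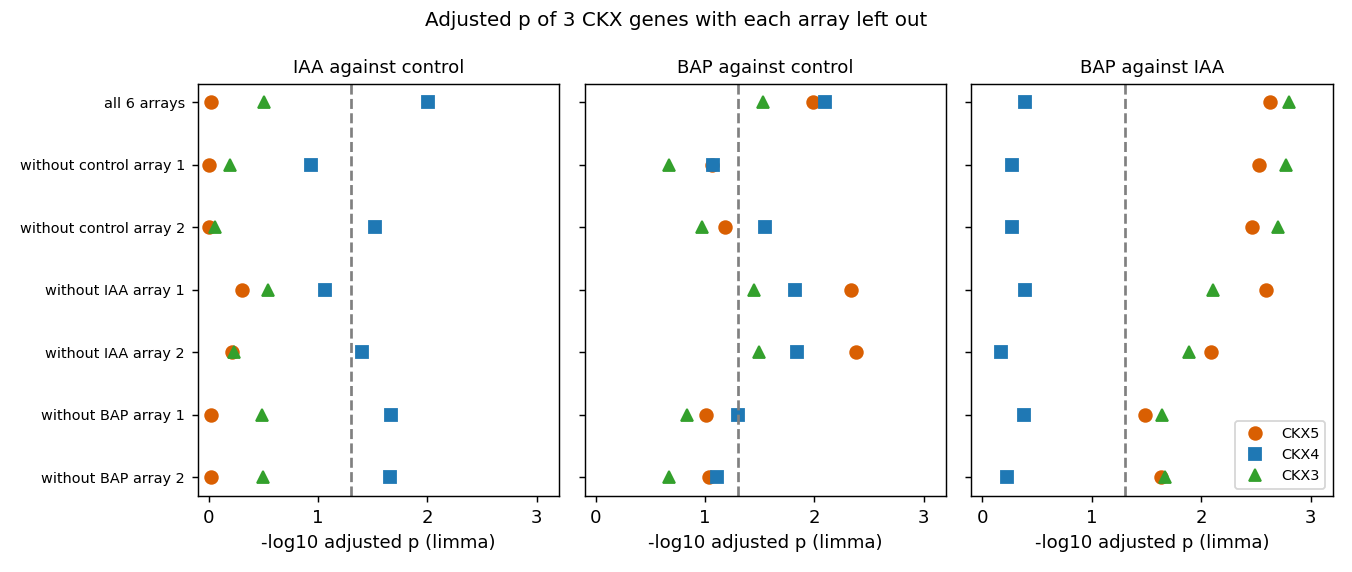
Adjusted p of CKX5, CKX4 and CKX3 in limma, as -log10 on the horizontal axis, with all 6 arrays and with each array left out in turn on the vertical axis; the dashed line is the threshold of 0.05. For BAP against IAA, CKX5 and CKX3 stay to the right of the line throughout, and for BAP against control most points move left of it when a control or BAP array is left out.

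Other genes of the cytokinin pathway were set beside the CKX genes, with the brightest tested probe set for each gene. The median log2 difference over the 4 tested CKX genes was 1.45 with BAP and -0.10 with IAA, beside -0.01 for both hormones over all 34316 tested probe sets. Of 6 type-A response regulator genes, 5 were called higher with BAP and 0 lower, with a median of 2.39. Of all tested probe sets, 0.210% were called higher with BAP and 0.219% lower with IAA. RR9 rose by 2.81 (limma adjusted p = 0.000225), RR4 by 2.41 (adjusted p = 0.000225) and RR6 by 2.37 (adjusted p = 0.000207) with BAP. With IAA, RR9 and RR4 read -1.03 and -0.81 and were called lower (limma adjusted p = 0.0159 and 0.0294), 0 type-A genes were higher, and the list's median was -0.25. CKX4 thus moved in the direction opposite to RR9 and RR4 under IAA, as values in the same fit. The BAP calls of these 3 genes held with each array left out (adjusted p up to 0.0105). The IAA call of RR4 was lost when any 1 of the control and IAA arrays was left out, with adjusted p up to 0.254. That of RR9 was lost for control array 2, IAA array 1 and IAA array 2, with adjusted p up to 0.134. Near-identical copies of RR9 can share its probes, so its value is uncertain.

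The receptor, phosphotransfer and type-B regulator lists are short, and with 0.210% of all tested probe sets called higher with BAP a count of 0 is no result about them. In limma, 0 of 4 receptor genes were called with BAP (1 higher and 2 lower at an unadjusted p under 0.05) and 0 with IAA (0 at that level). The receptor gene HK4 read 0.93 with BAP (limma adjusted p = 0.139) and HK5 read -0.51 (adjusted p = 0.263). Of 3 phosphotransfer genes 0 were called with either hormone, and 0 were under an unadjusted p of 0.05. Of 4 type-B response regulator genes 0 were called with either hormone, with 1 higher and 1 lower for BAP and 1 lower for IAA at an unadjusted p under 0.05. Over all tested probe sets, 7.57% for BAP and 10.8% for IAA had an unadjusted p under 0.05. Between the hormones, the type-B genes RR24 and RR21 were called in opposite directions, at 0.62 and -0.49 for BAP minus IAA (limma adjusted p = 0.0247 and 0.0422), and both calls were lost with any 1 of the 6 arrays left out (adjusted p up to 0.106 and 0.175).

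Among the LOG genes, whose enzymes release active cytokinins from their nucleotides, 1 of 8 tested genes was called higher with IAA and 0 lower (5 higher and 1 lower at an unadjusted p under 0.05), with a median of 0.44. Of all tested probe sets, 0.632% were called higher with IAA, and 5.25% were higher and 5.60% lower at an unadjusted p under 0.05. LOGL3 rose by 1.80 with IAA (limma adjusted p = 0.00655, and up to 0.0457 with 1 array left out), while the founding member LOG read 0.89 (adjusted p = 0.0547) and LOGL6 read -1.13 (adjusted p = 0.0900). With BAP 0 were called and 0 were under an unadjusted p of 0.05, with a median of -0.16. CKX4, an enzyme gene of cytokinin removal, and LOGL3, one of cytokinin activation, were therefore both called higher with IAA. The lists of isopentenyltransferases and of cytokinin O-glucosyltransferases matched 0 genes by name and gave no values.

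**Figure D4:**
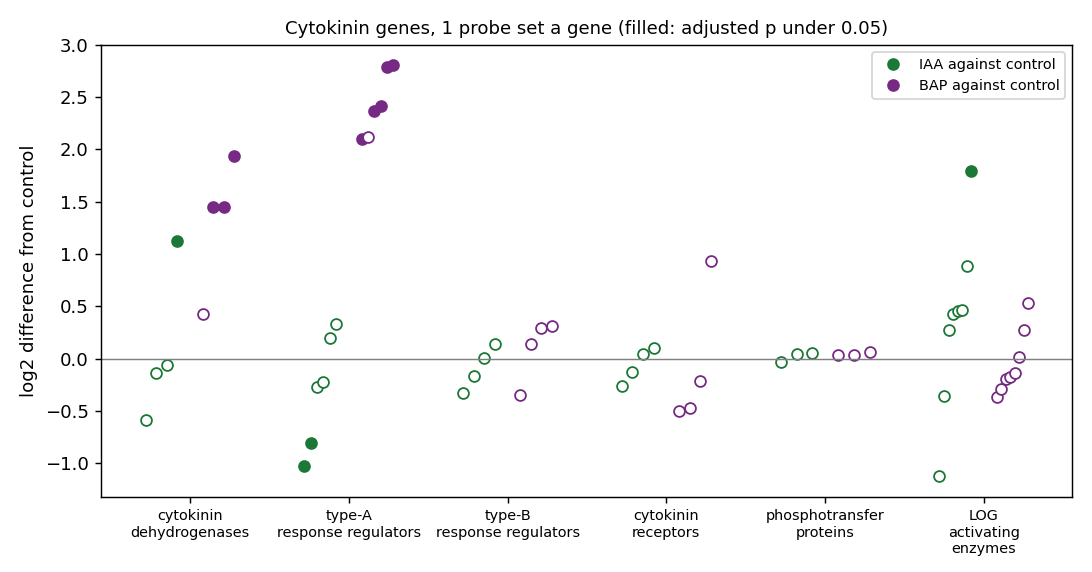
Log2 differences from control of cytokinin pathway genes, 1 probe set for each gene, for IAA and BAP; each point is a gene and filled points passed an adjusted p of 0.05 in limma. The filled BAP points are CKX and type-A response regulator genes, and the filled IAA points are CKX4, LOGL3, RR9 and RR4.

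Likeness of pattern was measured over the 6 arrays as the root mean square difference of log2 values after subtracting the control mean, among 1288 other named genes. The gene nearest to CKX5 was RR2, a type-A response regulator gene, at 0.23 log2 units, followed by RR6 at 0.34 and CKX3 at 0.44, where the median over all named genes was 1.16. RR2 was -0.22 with IAA and 2.10 with BAP, against -0.06 and 1.94 for CKX5. The gene nearest to CKX3 was CIN1, a cell wall invertase gene, at 0.24, followed by CPD2, a brassinosteroid synthesis gene, at 0.31 and EXPB7, a beta-expansin gene, at 0.39. CIN1 read -0.50 with IAA and rose by 1.10 with BAP (limma adjusted p = 0.0824 and 0.00588), a rise that lost its call without control array 1 or BAP array 2 (adjusted p up to 0.0739). The median over named genes was 0.94 for CKX3.

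The pattern of CKX4 was most like that of EXPB11, another beta-expansin gene, at 0.25, where the median over named genes was 1.09. EXPB11 rose by 0.87 with IAA and by 1.12 with BAP (limma adjusted p = 0.00655 and 0.00531). Next were ACS1, an ethylene synthesis gene, at 0.38 and GLO1 at 0.39. ACS1 rose by 1.69 with IAA (limma adjusted p = 0.0203) and read 1.20 with BAP (adjusted p = 0.142), while GLO1 read 0.64 with IAA (adjusted p = 0.140) and rose by 1.04 with BAP (adjusted p = 0.0392). Genes nearest to CKX4 were thus above control with both hormones, whereas those nearest to CKX3 and CKX5 were above it with BAP and at or below it with IAA. This follows from how they were selected and was given no test. The calls of these 3 genes rested on single arrays too. EXPB11 lost its IAA call without control array 1, control array 2 or IAA array 1 (adjusted p up to 0.0821) and its BAP call without either control array (up to 0.0699). The IAA call of ACS1 was lost when any 1 of the control and IAA arrays was left out (up to 0.153). The BAP call of GLO1 was lost with each array left out except BAP array 1 (up to 0.225).

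**Figure D5:**
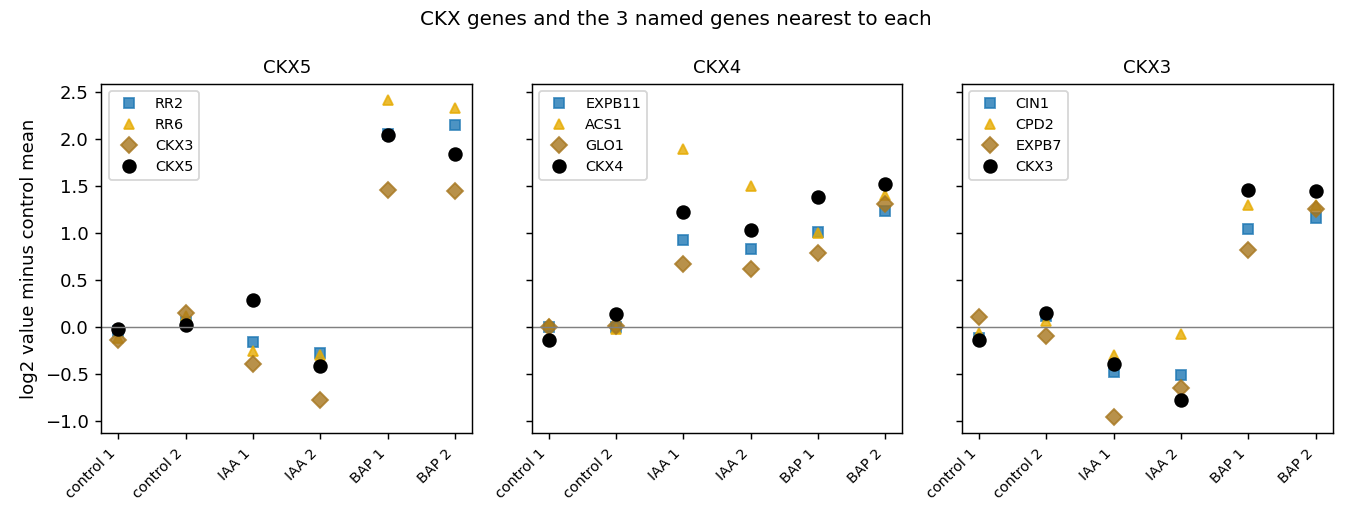
Log2 value minus the control mean on each of the 6 arrays for CKX5, CKX4 and CKX3 (black) and the 3 named genes nearest to each (coloured). The CKX4 panel is above 0 on all IAA and BAP arrays, and in the CKX5 and CKX3 panels the BAP arrays stand alone above the rest.

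Genes next to the CKX genes in the genome are given as values only, since few probe sets were called overall. Taking up to 3 genes on each side of the 5 CKX genes in the japonica gene order, 16 had a tested probe set. In limma 0 of them were called with BAP (0 at an unadjusted p under 0.05), with log2 differences from -0.22 to 0.40. With IAA 0 were called (1 at an unadjusted p under 0.05), with differences from -0.51 to 0.30. Of all tested probe sets, 7.57% with BAP and 10.8% with IAA were under that unadjusted level in limma. With so few neighbours, these counts are no result about them. Neighbours were examined after the CKX values were known, and the gene order in IR64 may differ.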

How the data were processed

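RNA of each sample was hybridised to 1 Affymetrix rice array with a biotin label, per the labels. The deposited table gives 1 linear intensity per probe set and array; the software, background correction and summary method are not given in the sources used here, and no detection calls were used. Run day and fluidics module were read from the scanner's experiment files, per the file headers.

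After 187 array controls were left out, intensities were taken as log2(intensity + 16), which understates changes of dim genes. Array medians differed by up to 0.262, so arrays were quantile normalized. Probe sets with a mean under the 40th percentile (22878) were left out. Using limma 3.58.1 in R 4.3.3, group means of the 6 arrays were fitted together (3 residual degrees of freedom). The empirical Bayes spread was allowed to depend on brightness. Every adjusted p is two-sided. It is from this fit except where an array left out, dim probe sets kept or another setting is named. The fit was tested on simulated data. Tables were read with pandas 2.3.3 in Python 3.11.15 and drawn with matplotlib 3.10.9. The number of arrays limits the precision.

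Names came from the platform annotation and a RefSeq table of a japonica assembly. Its coordinates served only to order the genes when neighbours were picked, and sequences were not used here. The members, gene lists and tests were chosen with earlier results of these data known. Every CKX probe set was named, with the 3 nearest named genes of each called CKX gene and up to 3 members of each other list. Named genes needed a symbol or an Os-prefixed synonym. Alternatives were the pseudocount, filter, scaling, spread, replicate block, arrays in the fit and each array left out. Deviations of same-numbered arrays from their group means correlated at 0.03, -0.06 and 0.02 between groups, so the replicate numbers were not taken as pairs.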

Additional observations from a re-analysis of the deposited data

How the results depend on the processing

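CKX3 and CKX5 stayed called for BAP against IAA in all 14 alternatives each, and no called CKX difference changed sign in any alternative. Among uncalled values, 2 did so, each without 1 array: CKX5 with IAA (0.29 without IAA array 2) and the dim CKX11 probe set with BAP (0.20 without BAP array 2). With dim probe sets kept, which adds features to the adjustment, 0 CKX probe sets were called with IAA and 0 with BAP against control: CKX4 with IAA was 1.12 (adjusted p = 0.0543), CKX3 with BAP 1.45 (0.242), CKX4 with BAP 1.45 (0.0505) and CKX5 with BAP 1.94 (0.104). With a spread independent of intensity the same differences had adjusted p of 0.0812, 0.147, 0.108 and 0.144, again with 0 calls in each; the cause was not tested. With a pseudocount of 1, CKX3 with BAP was 1.73 (adjusted p = 0.0692). Over all probe sets, the counts for IAA, BAP and their difference, 292, 94 and 769 in the fit reported, were 68, 14 and 234 with dim probe sets kept and 92, 13 and 223 with a spread independent of intensity. Without rescaling they were 502 for IAA and 210 for BAP, and with each array centred on its median 60 for BAP. Leaving out 1 array gave 85 to 287 for IAA, 13 to 92 for BAP and 310 to 591 for their difference, and 0 to 1 CKX probe sets higher with IAA and 0 to 3 with BAP. The log2 ranges without 1 array were 0.99 to 1.26 for CKX4 with IAA, 1.30 to 1.59 for CKX3, 1.31 to 1.59 for CKX4 and 1.84 to 2.04 for CKX5 with BAP, -0.41 to 0.29 for CKX5 with IAA, and -0.24 to 0.20 for the dim CKX11 probe set with BAP, which fell under the brightness filter in 4 of those fits. With the replicate block, which the check of the numbers did not call for, 320, 95 and 756 probe sets were called and no CKX call changed.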
